A study of Camellia sinensis with 9 samples.

Results

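The W stage, in which the young leaves of the tea plant cultivar ‘Anji Baicha’ are white, was compared with the YG stage, in which they are yellow-green. Both groups were untreated leaves of 4-year-old Camellia sinensis plants of this one cultivar, with 3 RNA-seq libraries for W and 3 for YG among the 9 libraries of the series, the rest being from green leaves (G). The W leaves were picked later in April than the YG leaves, and from below the first leaf of longer shoots, whereas the YG leaves were the first leaves, so that leaf color cannot be told apart from leaf age, position and date. No green-leaved cultivar and no other control plant stood beside them. Expression was given as FPKM (fragments mapped to a unigene, scaled by its length and by the mapped total of the library), a unigene being a transcript sequence assembled from the reads without a genome, and each stage had 1 pooled value per unigene, although its libraries came from separate plants. The comparison took the 67777 of 179951 unigenes whose FPKM reached 1 in W or YG, and the change was log2(W FPKM + 1) minus log2(YG FPKM + 1), a scale that understates the change of weakly expressed unigenes. With 1 value per stage there was no replicate check, so every difference below is a size without an error, an interval or a p-value. The number of fragments behind a value is unknown. In whole leaves, fewer cells of a type and less RNA per cell cannot be told apart.

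‘Anji Baicha’ is a tea cultivar whose spring shoots are pale for a time before they turn green. Chlorophyll is made from glutamate through a chain of tetrapyrroles, into which magnesium is inserted before a phytol tail is attached. Carotenoids are made in the same plastid from isoprenoid units, and theanine, the amino acid known for the umami taste of tea, is made from glutamate and ethylamine. The files pair no unigene with a gene name, so enzymes could be named only for the unigenes that the study listed for these 3 pathways, and markers of leaf cell types could not be looked up.

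In the 3 pathway lists, white and yellow-green leaves differed by 2-fold or more in unigenes of several enzymes. Of the 18 unigenes listed for glutamine synthetase (GS) and theanine synthetase (TS), 5 were between 2.76-fold and 3.30-fold higher in W. All 5 unigenes listed for alanine decarboxylase (AIDA), which by the paper encode arginine decarboxylases, were lower in W. Zeaxanthin epoxidase was 3.56-fold higher in its one counted unigene, a uroporphyrinogen III synthase unigene 3.44-fold higher and the NYC1 unigenes with values in both stages had 2.18 and 2.07 times as much in W. Of the 7 counted unigenes for protochlorophyllide oxidoreductase A, 6 were lower in W. Among all 57407 unigenes above 0 in both stages, 29357 were lower in W by any amount. The lists held 155 unigenes, of which 121 were counted. Of the 113 above 0 in both stages, 11 (9.73%) were higher and 4 (3.54%) lower by 2-fold or more, beside 5.07% and 5% of all unigenes above 0 in both stages. The lists held more strongly expressed unigenes, since 46 of the 113 had a higher FPKM of 10 or more. At that level 2 of 10 carotenoid (20%), 2 of 20 chlorophyll (10%) and 6 of 16 theanine unigenes (37.5%) were higher by 2-fold or more. Lower by as much were 0, 1 (5%) and 0 of them. Of all 5583 unigenes at that level, 11.4% were higher and 10.7% lower.

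Across all counted unigenes the W and YG values were close for most on the log2(FPKM + 1) scale. The median change was 0.01, and 40480 unigenes, or 59.7%, differed by less than 1.5-fold on that scale. The pseudocount enlarges this share, since 34058 of the counted unigenes had a higher FPKM of only 1 to 2. In that class, among unigenes above 0 in both stages, the share at least 2-fold apart was 2.76% with the pseudocount and 30.1% without it. A difference of at least 2-fold was found for 16152 unigenes, 23.8% of those counted, of which 8969 (13.2%) were higher and 7183 (10.6%) lower in W. In the same count, 25.8% of the 67475 unigenes compared between G and W and 33.4% of the 69101 compared between G and YG were at least 2-fold apart, and without values of 0 these shares were 12.1% and 19.7%. The cutoff on FPKM ran through a dense part of the values, with 5861 unigenes whose higher value lay between 1 and 1.1 and 6806 left out with one between 0.9 and 1.

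The unigenes listed at exactly 0 in one stage were kept apart, because a 0 can be a failed estimate. With an FPKM of 1 or more in the other stage they pass the 2-fold limit by arithmetic alone. They numbered 10370 of the 16152, with 6056 at 0 in YG and 4314 at 0 in W. Among the other 57407 unigenes, which had a value above 0 in both stages, 5782 (10.1%) were at least 2-fold apart, and these were split evenly, with 2913 (5.07%) higher and 2869 (5%) lower in W. A difference of at least 4-fold remained for 335 higher and 384 lower ones, and of at least 8-fold for 80 and 71.

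**Figure D1:**
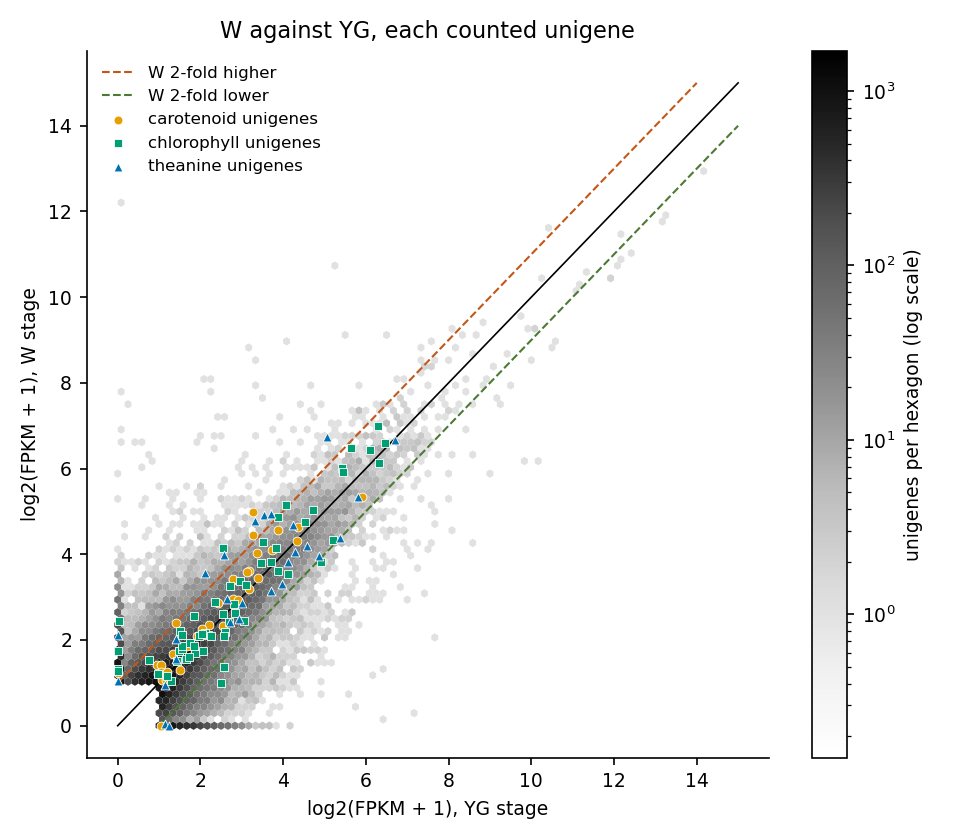
Each counted unigene by its log2(FPKM + 1) at the W stage (vertical axis) and at the YG stage (horizontal axis), with the grey shade giving the number of unigenes per hexagon on a log scale. Dashed lines mark a 2-fold difference, colored symbols are the listed carotenoid, chlorophyll and theanine unigenes, and the points along both axes are the 10370 unigenes listed at 0 in one stage.

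The share of unigenes that were 2-fold apart differed with the level of expression, in a way that rested on the pseudocount except for the strongest unigenes. Of the unigenes above 0 in both stages, 2.76% were at least 2-fold apart where the higher FPKM lay between 1 and 2, 13.8% between 2 and 5, and 19.6% between 5 and 10. The share was 20.3% between 10 and 50, 26.8% between 50 and 100, and 46% of the 276 with 100 or more. Without the pseudocount the shares of these classes, weakest first, were 30.1%, 28.8%, 25.5%, 22.7%, 27.7% and 46.7%, so that only the strongest class stood above the weakest. Values of 0 in one stage made up 20.5% of the weakest class and 0.45% of the class between 10 and 50.

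**Figure D2:**
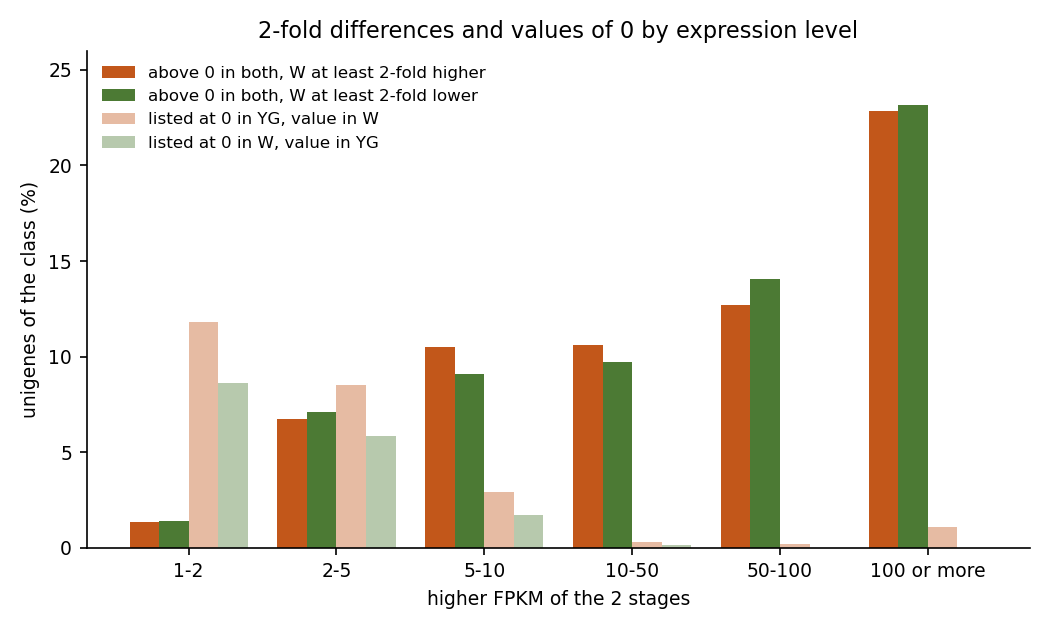
Shares of unigenes (vertical axis, percent) at least 2-fold higher or lower in W among those above 0 in both stages, and shares listed at 0 in YG or in W among all counted unigenes, by the higher FPKM of the stages (horizontal axis). On this scale with a pseudocount of 1 the 2-fold share is 2.76% in the weakest class and 46% in the strongest, while values of 0 in one stage fade after an FPKM of 10.

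The 10 most abundant unigenes of YG were lower in W, but they were picked by their YG values, which favors that direction. All 10 unigenes with the highest FPKM in YG had lower values in W, and 8 of them stood between 0.372 and 0.447 of their YG value. These 8, grouped by their low ratios, together held 6.98% of the summed FPKM of W, against 15.3% of that of YG. Strongly expressed unigenes as a class, with a higher FPKM of 100 or more, were split evenly. Of the 276 above 0 in both stages, 63 were at least 2-fold higher and 64 lower in W. Unigene97332, the highest in both stages, had an FPKM of 8214 in W, against 18394 in YG, and unigene102569 had 4008 in W, against 9308 in YG. Unigene97322 had 3551 in W, against 8699 in YG. The size of these differences depended on the scaling. Under quantile normalization, which gives both stages one distribution of values, the change of unigene97332 was 0 and those of unigene102569 and unigene97322 were -0.13 and -0.48. Among the 5 highest in W, the exceptions were unigene21, with 4589 in W and a listed 0 in YG, and unigene4192, with 3044 in W, against 1305 in YG. Of the 10 highest in W, 7 were lower in W than in YG. Besides these exceptions, unigene88363 was higher, with 1613 in W, against 36.7 in YG.

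Outside the listed pathways, the unigene highest in W relative to YG, among those above 0 in both stages, was unigene62435, with an FPKM of 185 in W, against 0.186 in YG. Unigene12560 had 98.4 in W, against 0.331 in YG, and unigene27033 had 93.6 in W, against 0.494 in YG. These 3 were higher still in green leaves, with 1139, 1440 and 2263. A different order was seen in unigene95398, with 273 in W, against 3.36 in YG, and in unigene169456, with 284 in W, against 3.60 in YG, both of which had lower values in G than in W, 49.3 and 61.7. The unigenes lowest in W relative to YG were unigene68381, with 0.302 in W, against 143 in YG, and unigene28576, with 0.0965 in W, against 84.9 in YG. Unigene33172 had 3.23 in W, against 205 in YG. Unigene106537 had 0.322 in W, against 53.3 in YG, and unigene43359 had 1.34 in W, against 84.6 in YG. Of these 5, all but unigene33172 were listed at 0 in G.

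The values of exactly 0 were low-expression cases with few exceptions. The median FPKM in W of the 6056 unigenes at 0 in YG was 1.60, and 19 of them reached 10. The median in YG of the 4314 unigenes at 0 in W was 1.55, and 7 reached 10. The 3 highest at 0 in YG were unigene21 with 4589 in W, unigene93466 with 219 and unigene148931 with 123, and all 3 had values in G, of 3728, 583 and 1388. The 3 highest at 0 in W were unigene129580 with 17.8 in YG, unigene166212 with 12.6 and unigene168217 with 12.4, and all 3 were also at 0 in G.

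Where the 0 stood differed with the number that the assembly gave to the unigene. Among the 38665 counted unigenes numbered up to 100000, 0.38% were at 0 in YG and 0.194% at 0 in W. Between numbers 150001 and 160000, 57.1% of the counted unigenes had a value in W and a 0 in YG, against 2.37% with the reverse. Between 170001 and 179951 it was 3.43%, against 55.3% with the reverse. Among unigenes above 0 in both stages, 6.13% to 10.5% were at least 2-fold apart in the groups of 10000 numbers up to 100000, and the highest share, 16.8%, was that of the group from 120001. Their direction differed with the numbers too. In the group from 150001, 221 were at least 2-fold higher and 73 lower in W, and in the group just before it 206 and 95. In the group from 160001, 83 were higher and 290 lower, and in the last group 84 and 170.

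**Figure D3:**
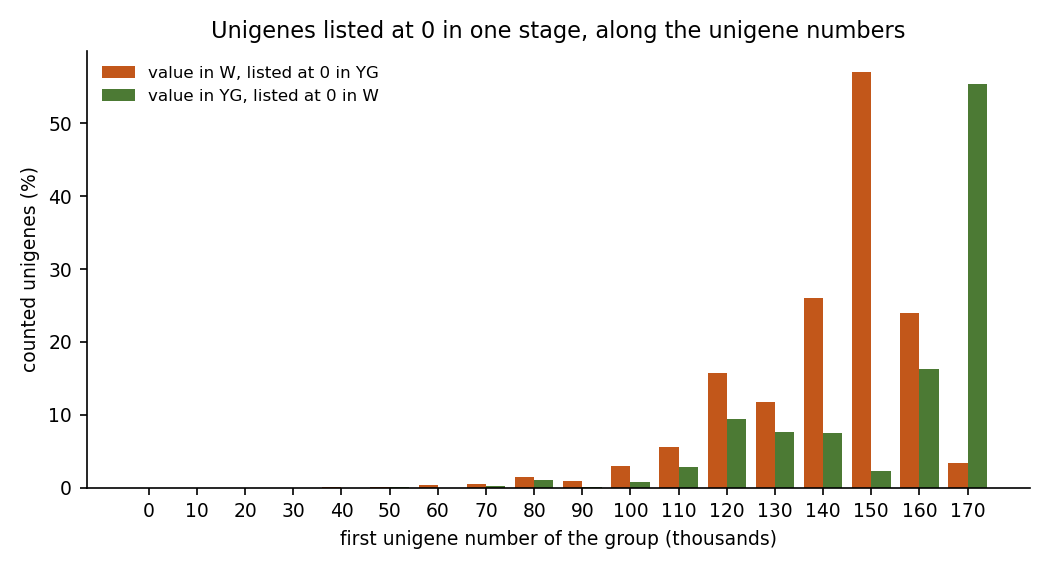
Share of the counted unigenes (vertical axis, percent) with a value in W and a 0 in YG, or with a value in YG and a 0 in W, in consecutive groups of 10000 unigene numbers (horizontal axis). The first kind peaks at 57.1% in the group from 150001 and the second at 55.3% in the last group.

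Theanine is made by TS from glutamate and ethylamine, and GS, which makes glutamine from glutamate and ammonia, is closely related to it in sequence. The study listed 14 unigenes for GS and 10 for TS, and 6 were in both lists, or 42.9% of the GS list and 60% of the TS list. Of the 18 different unigenes, 12 were counted and 11 of these were above 0 in both stages. The 5 that were at least 2-fold higher in W had a summed FPKM of 187 in W, against 59.95 in YG, and the other 13, uncounted ones included, had 152 in W, against 167 in YG.

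The most abundant of the 5, unigene58305, had an FPKM of 106 in W, against 32.2 in YG, a change of 1.69. It was in both lists, as were unigene37325, with 26.5 in W, against 8.95 in YG, and unigene25911, with 29.1 in W, against 10.6 in YG. Unigene39849, listed for TS alone, had 10.8 in W, against 3.34 in YG, and unigene89631, also for TS alone, had 14.8 in W, against 4.93 in YG. The 5 ratios lay close together, at 3.30, 2.96, 2.76, 3.24 and 3.01 in the order named. Unigenes assembled without a genome can be pieces or alleles of one gene, and the files hold no unigene sequences, so these 5 cannot be counted as 5 separate genes. The same limit applies to AIDA, protochlorophyllide oxidoreductase A and every other enzyme with several unigenes. How reads shared by similar unigenes were counted is not given, which holds for every enzyme with several unigenes. All 5 were higher again in G, with a summed FPKM of 431.

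The other GS and TS unigenes above 0 in both stages were less than 2-fold higher or were lower in W. Unigene13585, the second most abundant of the group in W and in both lists, had 100 in W, against 104 in YG. Unigene6286, also in both lists, ran the opposite way, with 20.0 in W, against 40.6 in YG, a change of -0.99 that fell just short of 2-fold on this scale. The GS unigene4749 had 24.6 in W, against 17.9 in YG, and the GS unigene91058 had 0.0203 in W, against 1.21 in YG. The qRT-PCR primers designed for the 5 TS unigenes higher in W and for unigene13585 are shown here because they are the sequences that tie these unigenes to a transcript, with the 5 bases at the 3′ end, from which the polymerase extends, in capitals.
unigene58305 sense: tactcgagacacaaacagaGCCCA
unigene58305 anti-sense: gtatttcataatcccaacccAACCT
unigene37325 sense: cagaagagataagagagagggAGAGA
unigene37325 anti-sense: gtagagtccgagaggttcaGGTTG
unigene25911 sense: tactcctctgtcctcccctTGATG
unigene25911 anti-sense: attctggttgtggatggttTGTTG
unigene39849 sense: tgtgatggacccaatggtGATAG
unigene39849 anti-sense: aaaataaggtggttgactcGGAAA
unigene89631 sense: catcttccttttcatcttcGGGTT
unigene89631 anti-sense: tcgagtagtgttgcttttccAATTC
unigene13585 sense: ggagagaaagaggagagagGGAGA
unigene13585 anti-sense: cggaaagaagagacatagtGACGA

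AIDA removes the carboxyl group of alanine to yield ethylamine, the other substrate of TS. By the paper, its gene had not been identified, and the 5 unigenes listed for it encode arginine decarboxylases with similar domains. Whether they act on alanine was not tested. All 5 were lower in W, none by 2-fold on the log2(FPKM + 1) scale. The most abundant, unigene132868, had 39.1 in W, against 55.3 in YG, a change of -0.49. The strongest difference was that of unigene81677, with 14.5 in W, against 28.3 in YG, a change of -0.92. Unigene4834 had 7.80 in W, against 12.0 in YG, and unigene89828 had 17.4 in W, against 22.8 in YG. Unigene37160 differed least, with 15.6 in W, against 18.5 in YG. The summed FPKM of these listed unigenes was 94.3 in W, against 137 in YG.

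Glutamate synthase (GOGAT) returns the amide nitrogen of glutamine to glutamate. Of its 13 unigenes, 10 were counted and 8 were above 0 in both stages, 3 of them higher and 5 lower in W. The most abundant in W, unigene201, had 29.5 in W, against 12.0 in YG, a change of 1.23. Unigene24016 had 8.84 in W, against 14.7 in YG, and unigene168460, the most abundant in YG, had 13.2 in W, against 16.5 in YG. The summed FPKM was 81.4 in W, against 71.3 in YG. Over the whole theanine list, 6 of the 24 unigenes above 0 in both stages (25%) were higher in W by 2-fold or more and 1 (4.17%) was lower by as much, beside 5.07% and 5% of all unigenes. All 6 were among the 16 members whose higher FPKM was 10 or more. Of all 5583 unigenes at that level, 22.1% were apart by 2-fold, made up of 11.4% higher and 10.7% lower in W. The median change was -0.14 for those 16 members, against -0.07 for all 5583.

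**Figure D4:**
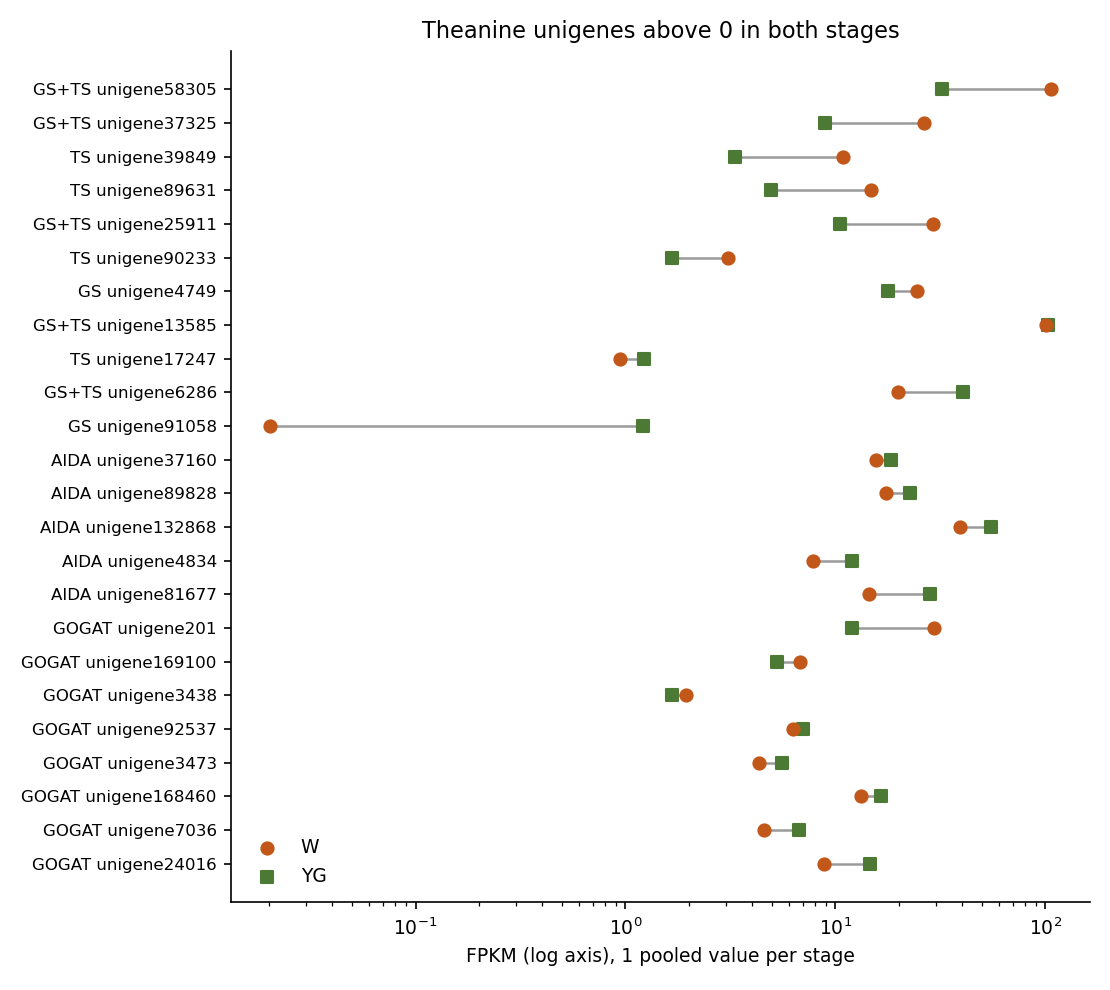
FPKM (horizontal log axis) of the 24 theanine unigenes above 0 in both stages, with W as circles and YG as squares joined by a line, 1 pooled value per stage. The GS and TS unigenes at the top lie higher in W by about 3-fold in 5 cases, and all 5 AIDA unigenes lie lower in W.

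Of the 49 carotenoid unigenes, 35 were counted and 33 were above 0 in both stages. In these 33, 27 were higher and 6 lower in W, with a median change of 0.21, beside -0.01 for all unigenes above 0 in both stages. Of all 57407 unigenes above 0 in both stages, 28050 were higher and 29357 lower. Of the 33, 2 (6.06%) were at least 2-fold higher and none lower, beside 5.07% and 5% of all unigenes. Both were among the 10 members with a higher FPKM of at least 10, a level at which 11.4% of all unigenes were higher and 10.7% lower. For 12 of the 14 enzymes the summed FPKM was higher in W, and the exceptions were ispE and geranylgeranyl diphosphate synthase (GGPS).

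The early steps make isoprenoid units from pyruvate and glyceraldehyde phosphate. The 7 unigenes of DXS, the first enzyme, had a summed FPKM of 30.1 in W, against 22.9 in YG. The enzyme ispF, which closes the ring of the cyclodiphosphate intermediate, had one unigene, unigene28019, with 20.7 in W, against 8.67 in YG, a change of 1.17. The 4 unigenes of isopentenyl diphosphate isomerase (IPI), which interconverts the 5-carbon units, were all higher in W, with a summed FPKM of 28.9 in W, against 20.9 in YG. The 3 unigenes for ispD were likewise higher, with 6.18 in W, against 5.002 in YG, while the 4 for the kinase ispE had 7.58 in W, against 8.28 in YG. The 2 unigenes of DXR, the reductoisomerase, had 7.996 in W, against 5.27 in YG.

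From phytoene to lycopene, the summed FPKM of the desaturases differed more than that of phytoene synthase (PSY), the entry enzyme of the pathway. Single unigenes overlapped, with changes of 0.20 for the phytoene desaturase unigene89678 and 0.26 for the PSY unigene38088. The summed FPKM of the 2 phytoene desaturase (PDS) unigenes was 12.4 in W, against 8.12 in YG, and the ζ-carotene desaturase (ZDS) unigene25830 had 15.3 in W, against 9.28 in YG. PSY had 49.5 in W, against 44.6 in YG over its 7 unigenes. The lycopene ε-cyclase unigenes, which lead to lutein, had 13.5 in W, against 12.9 in YG, and the lycopene β-cyclase unigenes, which lead to β-carotene, had 21.4 in W, against 17.3 in YG.

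Zeaxanthin epoxidase (ZEP1) turns zeaxanthin into violaxanthin, and its unigene36818 had the largest change of the list, 1.72, with 30.8 in W, against 8.64 in YG. Its other 4 unigenes did not reach an FPKM of 1 in either stage, nor did the 2 of neoxanthin synthase (NXS). The primers of the 2 carotenoid unigenes that passed 2-fold are shown in the same way.
unigene36818 sense: gagtgagtgagtggtgatgGAGGA
unigene36818 anti-sense: gaggtaactaacgaacagtGGGGC
unigene28019 sense: aatgaaattaaaggattacaTGGGA
unigene28019 anti-sense: ggtgaatgaagttgtgttaGGACC

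**Figure D5:**
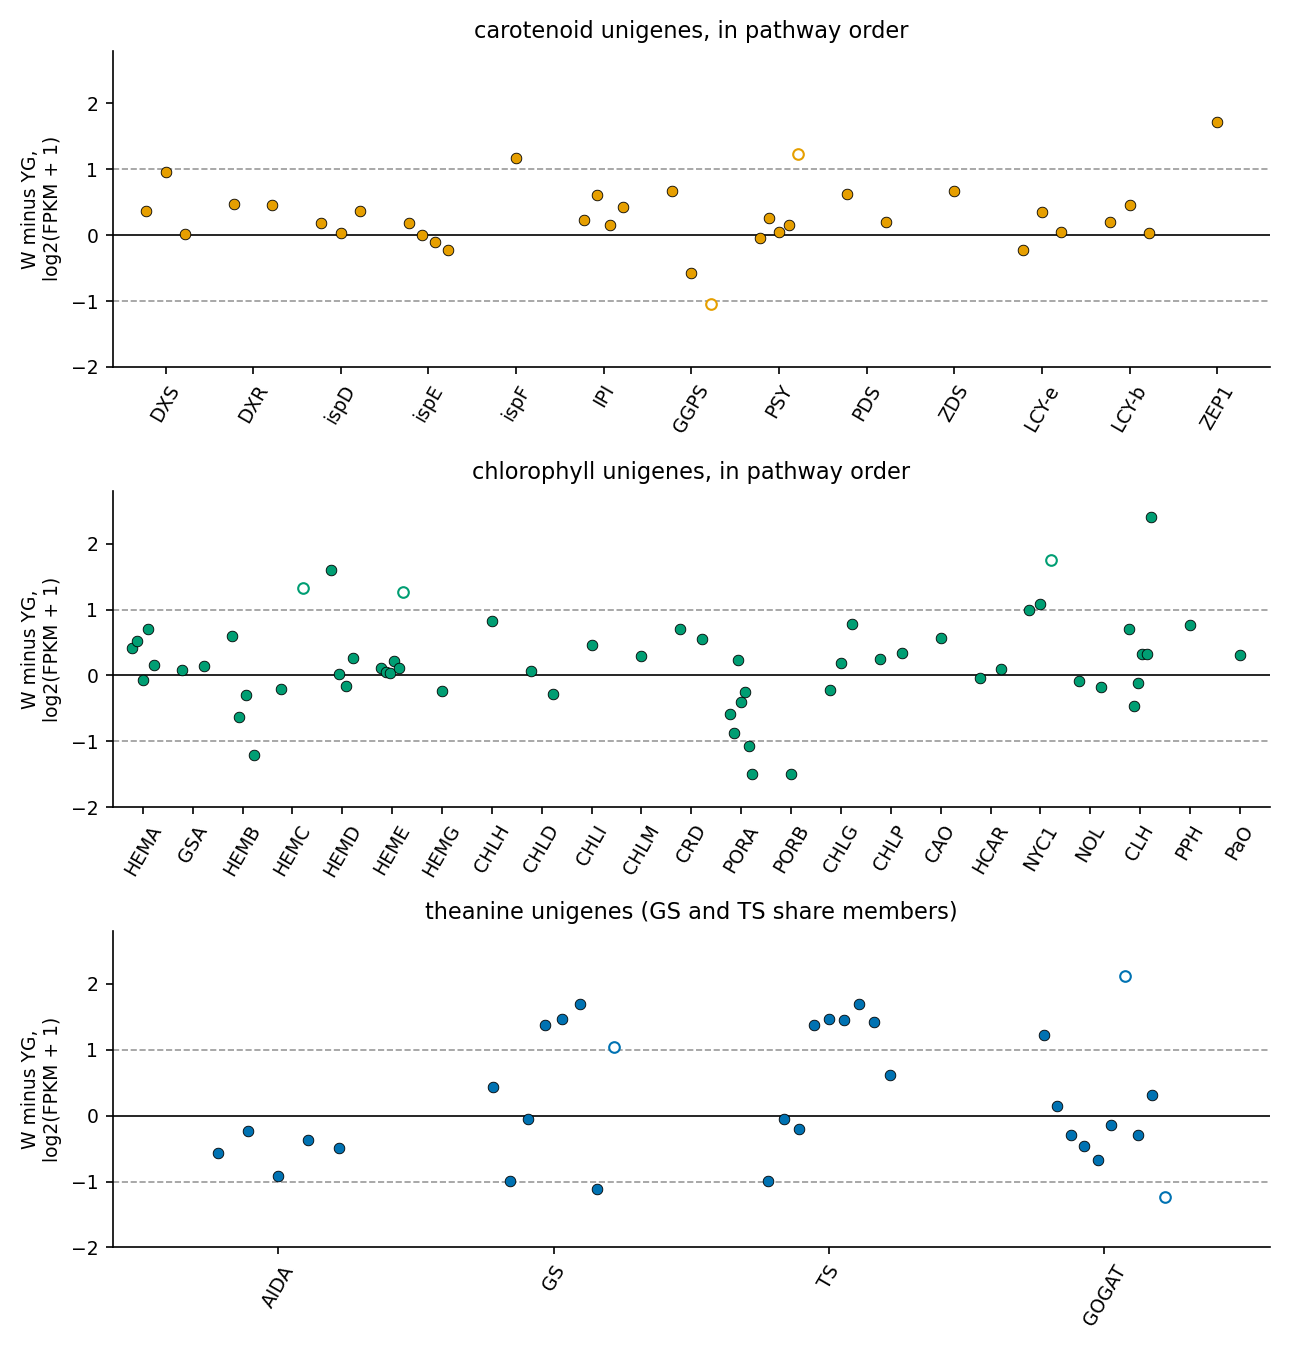
Change of each counted unigene, W minus YG in log2(FPKM + 1) (vertical axis), by enzyme in pathway order (horizontal axis) for the carotenoid, chlorophyll and theanine lists. Open circles are unigenes listed at 0 in one stage and dashed lines mark 2-fold. Most pigment unigenes lie between the lines and above 0, all counted PORA unigenes but 1 and all AIDA unigenes lie below 0, and 5 GS or TS unigenes with values in both stages lie above the upper line.

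Of the 70 chlorophyll unigenes, 59 were counted and 56 were above 0 in both stages, 36 of them higher and 20 lower in W. Their median change was 0.13. At least 2-fold differences were found for 3 higher (5.36%) and 3 lower (5.36%) ones, shares close to the 5.07% and 5% of all unigenes. Among the 20 members with a higher FPKM of 10 or more, 2 (10%) were higher and 1 (5%) lower. Of all unigenes at that level, 11.4% were higher and 10.7% lower. The summed FPKM was higher in W for 18 of the 24 enzymes. In the study's list some full enzyme names stand beside the abbreviation of another enzyme, so the abbreviations were followed.

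Among the steps from glutamate to protoporphyrin, 15 of 22 unigenes above 0 in both stages were higher in W, with a median change of 0.10. Glutamyl-tRNA reductase (HEMA), the first committed enzyme, had a summed FPKM of 25.8 in W, against 19.0 in YG, with 4 of its 5 counted unigenes higher. The aminotransferase GSA, one of the most abundant enzymes of the list, differed little, with 97.6 in W, against 88.3 in YG. The HEMD unigene2151, for uroporphyrinogen III synthase, which closes the tetrapyrrole ring, had 16.8 in W, against 4.88 in YG, a change of 1.60, while the other 3 HEMD unigenes lay between -0.16 and 0.26. The HEMB unigenes, for 5-aminolevulinate dehydratase, diverged. Unigene5974 had 63.3 in W, against 41.6 in YG, and unigene127446 had 1.57 in W, against 4.93 in YG, a change of -1.21. All 5 HEME unigenes above 0 in both stages, for uroporphyrinogen III decarboxylase, were slightly higher in W, with changes of 0.04 to 0.22, and the one counted HEMG unigene was lower, at -0.24.

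In the magnesium branch, 6 of 7 counted unigenes were higher in W and the summed FPKM was 325 in W, against 211 in YG. Magnesium chelatase inserts the metal, and its H subunit (CHLH) had 88.4 in W, against 49.2 in YG. Its I subunit (CHLI) had 59.6 in W, against 42.9 in YG, and the 3 unigenes of its D subunit (CHLD) had 9.96 in W, against 10.5 in YG, so that the subunits did not differ by the same factor. The methyltransferase CHLM had 31.6 in W, against 25.5 in YG. The cyclase CRD, which forms the fifth ring, had 135 in W, against 83.1 in YG, nearly all of it from unigene12598. Its unigene26832 was given the same primer pair as unigene12598, so that this pair does not tell them apart.
unigene12598 and unigene26832 sense: atgactggaaggctaagttGTGGG
unigene12598 and unigene26832 anti-sense: gcatgtcgaattctttggtGTTGA
By FPKM the 2 had similar ratios, with 127 in W, against 77.5 in YG for unigene12598 and 8.65 in W, against 5.58 in YG for unigene26832.

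Protochlorophyllide oxidoreductase, which needs light, reduces protochlorophyllide to chlorophyllide, and form A is known in Arabidopsis for its abundance in tissue not yet exposed to light. Its unigenes formed the one step of the chlorophyll list with a clear balance toward YG. The summed FPKM was 85.7 in W, against 128 in YG, and 6 of 7 counted unigenes were lower in W. The lower ones included unigene62053, with 13.2 in W, against 29.0 in YG, unigene7972, with 19.2 in W, against 36.2 in YG, and unigene131037, which the study listed for form B as well, with 0.989 in W, against 4.62 in YG. Unigene1225 had 10.7 in W, against 16.5 in YG. The exception was unigene8789, with 26.1 in W, against 21.9 in YG, and it was the most abundant form A unigene in W but only the third in YG.
unigene62053 sense: gaccttgctgtctttgtatgCCTTG
unigene62053 anti-sense: gcctacctaggggacatGAGGG
unigene7972 sense: tggaagactgaaagatacaaGGAAA
unigene7972 anti-sense: ccagaataatcacccacataGATGA
unigene8789 sense: acccttggtgatgtactttTGGAA
unigene8789 anti-sense: tgaggagacaggaataacttTTGCT
These pairs are shown because the first and second belong to unigenes lower in W and the third to the one that was higher.

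Geranylgeranyl reductase (CHLP), which prepares the phytol tail, had a summed FPKM of 88.0 in W, against 69.3 in YG, and chlorophyll synthase (CHLG), which attaches it, had 15.8 in W, against 14.4 in YG. In the cycle between chlorophylls a and b, chlorophyll b reductase (NYC1), which starts the breakdown of chlorophyll b, had 65.3 in W, against 29.6 in YG. Its unigene37738 had 34.7 in W, against 15.9 in YG, and unigene26042 had 28.3 in W, against 13.7 in YG, a ratio of 2.07 with a change of 0.999 that lay just under the 2-fold limit. The related NOL had 5.97 in W, against 6.37 in YG. The oxygenase CAO, which makes chlorophyll b, was weakly expressed, with 4.29 in W, against 2.57 in YG, and the reductase HCAR, which returns the intermediate to chlorophyll a, had 5.06 in W, against 4.74 in YG.
unigene37738 sense: gtgtctgtggtcatcatctCGTCT
unigene37738 anti-sense: ccattccttctttcaggttCTCTT
unigene26042 sense: gggaagagcattatatgcaGCAGA
unigene26042 anti-sense: aggcacaaacgacagaaagTGAGA
The NYC1 pairs are shown as those of the enzyme with the largest ratio of summed FPKM in the chlorophyll list, 2.21.

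Among the breakdown enzymes, pheophytinase (PPH), which removes the phytol tail from pheophytin, had 18.4 in W, against 10.3 in YG, in its one unigene. Chlorophyllase (CLH) had a summed FPKM of 44.4 in W, against 33.1 in YG. Of its 6 unigenes, 4 were higher in W, among them unigene131928, with 4.44 in W, against 0.0277 in YG, unigene58748, with 16.8 in W, against 13.1 in YG, and unigene90639, with 12.9 in W, against 10.1 in YG. The change of unigene131928, 2.41, was the largest of all listed unigenes above 0 in both stages, and its FPKM in G was 56.0. Pheophorbide a oxygenase (PaO) was weakly expressed, with 3.17 in W, against 2.70 in YG.

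In all 3 lists, 8 counted unigenes were listed at 0 in one stage. The 6 at 0 in YG were one unigene each of PSY, HEMC, HEME, NYC1, GS and GOGAT, and the 2 at 0 in W were one each of GGPS and GOGAT. Their values in the other stage ran from 1.06 to 3.34, and 7 of the 8 were at 0 in G as well. Their numbers lay between 154448 and 164039 for those at 0 in YG and at 171201 and 175936 for those at 0 in W, within the ranges in which such values were frequent among all unigenes. They added little to their enzymes, as in HEMC, where unigene155946 had 1.498 in W beside 68.7 in W, against 79.2 in YG, for unigene39110.

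Among the 40 listed unigenes with a primer pair, 31 had the higher FPKM in W and 9 in YG, and 10 of the 31 and 1 of the 9 passed 2-fold. These were 25% and 2.5% of the 40, beside 5.07% and 5% of all unigenes above 0 in both stages. Among all those whose higher FPKM was 10 or more, a level that 34 of the 40 reached, the shares were 11.4% and 10.7%. For qRT-PCR the study had picked genes that it found differentially expressed in these same data. The shares of the 40 are therefore no finding beside those of all unigenes. Over all 42 enzyme names of the lists, the summed FPKM was higher in W for 33 and lower for 9. GS and TS share members, as do forms A and B of protochlorophyllide oxidoreductase. Upper-quartile scaling and scaling to equal sums without the most abundant unigenes multiplied YG by 1.02 and 0.988. Factors so near 1 could not change the split, since the ratios nearest 1 were 1.048 for lycopene ε-cyclase and 0.951 for CHLD. Quantile normalization was not applied to the sums. Before scaling, at least 1.5-fold higher sums were found for 13 enzymes and at least 1.5-fold lower ones for 1. The latter was form B of protochlorophyllide oxidoreductase, which rested on a single unigene that is also listed for form A. Among the 13 was NXS, with sums of only 0.319 in W, against 0.131 in YG. These counts did depend on scaling. With upper-quartile scaling the ratios of DXR, PDS and TS were 1.492, 1.497 and 1.481, under the limit. That of form A, 0.659, then passed 1.5-fold lower.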

How the data were processed

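Leaves of ‘Anji Baicha’ at the W, YG and G stages were sequenced in 3 libraries each. The authors filtered the reads, assembled unigenes de novo with Trinity, joined contigs further, and deposited FPKM values from Cufflinks, 1 per unigene and stage. The submitters' processing notes name Cufflinks 2.1.1, whereas the paper's methods name an earlier version. How the libraries of a stage were combined, the aligner, and the treatment of reads shared by similar unigenes are not given in the sources used here. Unigenes were joined by identifier, and a pseudocount of 1 and a minimum FPKM of 1 in W or YG were used. The planned description without tests was kept, since pooled values allow none. The pathway lists are the study's own, chosen by annotation, and the members and lists were chosen with earlier results of these data known. Primers came from the study's supplementary table. None of the identifiers matched the RefSeq gene table (0), so no genome position is given.

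Picked for naming were every listed unigene at least 2-fold apart, the most abundant of each enzyme and those with primers. Added to these were the 5 largest differences each way above 0 in both stages, the 5 highest in each stage, and the 3 highest at 0 in the other stage. Not all of the listed unigenes so picked are given by name above. Further members were named where an enzyme was described in full, after their values were seen. The counting was tested on simulated data. Python 3.11.15, pandas 2.3.3, numpy 2.4.6 and matplotlib 3.10.9 were used.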

Additional observations from a re-analysis of the deposited data

How the results depend on the processing

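No paired analysis was possible because each stage had 1 pooled value, and for the same reason no library could be left out. The counts of unigenes at least 2-fold higher and lower in W, 8969 and 7183, became 13564 and 11786 with a pseudocount of 0.1, 1543 and 1321 with a minimum FPKM of 5, 655 and 605 with a minimum of 10, and 2913 and 2869 without unigenes listed at 0, and fewer unigenes entered the last 3. Among unigenes numbered up to 100000, a limit chosen after seeing the data, they were 1740 and 1607. The median change was 0.43 and 0.44 for the carotenoid list and 0.27 and 0.33 for the chlorophyll list with minimums of 5 and 10. That of the theanine list, -0.13, was 0.059 without a minimum, where 36 unigenes entered. Upper-quartile scaling, quantile normalization and scaling to equal sums moved the median of all unigenes by less than 0.1, and 54.8%, 52.0% and 56.2% of the 2-fold different unigenes were then higher in W, against 55.5%. Of the 95 unigenes picked for naming, 8 of the most abundant in YG came under 2-fold with quantile normalization. For unigene97332, highest in both stages, that method fixes the change at 0, and for the others the cause was not tested. Unigene26042 passed 2-fold with a pseudocount of 0.1, with quantile normalization and with equal sums. Without a pseudocount, a setting added after seeing the data, 8231 and 8182 unigenes above 0 in both stages were higher and lower. An unknown depth limits what low values can show.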
